A study of Mus musculus with 8 samples.

Results

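The genes for 6 receptors of vasoactive intestinal peptide (VIP), pituitary adenylate cyclase-activating polypeptide (PACAP) and serotonin were followed in the pacemaker and nerve-relay cells of mouse gut muscle. They were Adcyap1r1, Vipr1, Vipr2, Htr2b, Htr3a and Htr4, taken as a named set, and they make up 6 of 18193 genes measured. The platform annotation gave them 10 of the 34945 probe sets that name a single gene. Each gene's main value is its probe set with the highest mean over all arrays, and the other probe sets are given beside it.

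The study profiled RNA of small intestine from BALB/c mice, aged 6 to 9 days, on single-channel arrays. There were 3 arrays of ICC-DMP cells, 3 of ICC-MY cells and 2 of tunica muscularis, the muscle coat that holds both. ICC stands in this field for interstitial cells of Cajal, DMP for the deep muscular plexus and MY for the myenteric plexus. The labels name no genotype or treatment, and neither the way the cells were isolated, any pooling of animals, nor sex is stated in them. The titles call the samples biological replicates without saying that they come from separate animals, so p-values measure the spread between these samples, which may be technical. Precision is limited by how few arrays there are, tissue having 2.

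VIP and PACAP are related neuropeptides released by enteric motor neurons that relax gut muscle. Their receptors belong to class B of the G protein-coupled receptors and raise cyclic AMP through the G protein Gs. Vipr1 and Vipr2 encode VPAC1 and VPAC2, which bind both peptides, and Adcyap1r1 encodes PAC1, which prefers PACAP. Serotonin, made mainly by enterochromaffin cells of the epithelium and by some enteric neurons, acts on several receptor types in the gut. Htr2b encodes a receptor that signals through Gq and phospholipase C, Htr3a the subunit required for the serotonin-gated cation channel, and Htr4 a receptor that raises cyclic AMP.

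The isolated cells carried the receptor that marks these cells. Kit read 10.85 to 11.34 in ICC-DMP and 10.81 to 12.42 in ICC-MY, against 7.20 and 8.43 in tissue. These are on the log2 scale of the deposited values. Of 10 ICC markers, Kit among them, 4 passed as higher than tissue in ICC-DMP and 8 in ICC-MY, with 0 lower. Over all genes, 3.72% were higher in ICC-DMP and 4.05% in ICC-MY. The medians of the arrays ran from 4.18 to 4.30. The spread of values was narrowest in the first replicates of ICC-MY and tunica muscularis (SD over probe sets 1.98 and 2.06, elsewhere 2.22 to 2.31). The actin control's 3′ minus 5′ difference was highest in ICC-DMP replicate 3 and ICC-MY replicate 3 (4.66 and 4.28, against 2.53 to 3.53).

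RefSeq places the genes, in build GRCm38.p6, at chr6:55451501-55501455 for Adcyap1r1, chr9:121642716-121672954 for Vipr1 and chr12:116077420-116148637 for Vipr2. The serotonin receptor genes Htr2b and Htr3a lie at chr1:86097546-86116231 and chr9:48899213-48911152. The promoters of Adcyap1r1 and Htr2b are shown because these genes differed from tissue in opposite directions in ICC-MY. The sequences are the 250 bases before each gene's RefSeq start in build GRCm38.p6, 5′ to 3′, at chr6:55451728-55451977 on the plus strand for Adcyap1r1 and chr1:86111981-86112230 on the minus strand for Htr2b. Both windows lie within the full span that RefSeq gives the gene, which begins upstream of them. Capitals mark matches to the GC box GGGCGG on either strand and to the E-box CANNTG.
Adcyap1r1: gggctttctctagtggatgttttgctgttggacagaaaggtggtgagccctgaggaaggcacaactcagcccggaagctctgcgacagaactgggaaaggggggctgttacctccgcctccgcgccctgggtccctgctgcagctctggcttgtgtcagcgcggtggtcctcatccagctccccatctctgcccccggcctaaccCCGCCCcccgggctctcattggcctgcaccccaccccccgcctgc
Htr2b: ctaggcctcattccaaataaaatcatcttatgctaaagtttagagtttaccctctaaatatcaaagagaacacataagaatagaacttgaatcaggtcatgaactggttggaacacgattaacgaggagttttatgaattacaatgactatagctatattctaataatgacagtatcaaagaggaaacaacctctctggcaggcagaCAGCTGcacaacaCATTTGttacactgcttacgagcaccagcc
The Adcyap1r1 window was 65.6% G and C with 1 GC box and 0 E-boxes, and the Htr2b window 37.6% with 0 GC boxes and 2 E-boxes. Of 32851 promoter windows of this length, 32.7% held the GC box and 66.2% the E-box. The cyclic AMP response element TGACGTCA and the TATA box TATAAA, present in 1.55% and 12.4% of windows, were in neither window. The E-box and the cyclic AMP response element read the same on both strands, and these letter matches are descriptions only.

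Adcyap1r1 stood highest in ICC-MY. It read 6.66, 6.64 and 6.50 in ICC-DMP and 9.33, 10.24 and 10.34 in ICC-MY, against 7.22 and 7.60 in tissue. All ICC-MY arrays lay above all others, and the lowest of them, replicate 1, is the array with the narrow spread of values. ICC-MY exceeded tissue by 2.56 on the log2 scale (SE 0.30, limma adjusted p = 0.000693), a 5.88-fold difference. ICC-DMP was below ICC-MY by 10.3-fold (log2 difference -3.37, SE 0.27, adjusted p = 0.000134). In these bulk samples, fewer cells of a type and less RNA per cell cannot be told apart.

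ICC-DMP also read below tissue for Adcyap1r1 in every array, by -0.81 (SE 0.30), without passing the test (adjusted p = 0.143). That comparison passed without ICC-MY replicate 1 (adjusted p = 0.0141) at the same difference, and in 3 other alternatives, quantile normalization among them (0.00332), over a range of 0.00332 to 0.393. With the replicate number as a block it gave -0.88 (adjusted p = 0.0507). The order of Adcyap1r1 levels was therefore ICC-MY, tissue, ICC-DMP, with the last pair not separated by the main test.

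A single probe set carries the Adcyap1r1 difference. The second read 5.14 to 5.35 in ICC-DMP, 5.22 to 5.42 in ICC-MY and 5.36 and 5.39 in tissue. The third read 2.39 to 2.67 in ICC-DMP, 2.75 to 3.003 in ICC-MY and 2.65 and 2.67 in tissue. Neither passed in any comparison when all single-gene probe sets were tested (adjusted p from 0.199 to 0.941). With the gene's 3 probe sets averaged, ICC-MY minus tissue was 0.90 (limma adjusted p = 0.00177, within a range of 2.44e-06 to 0.0109 over that result's alternatives). ICC-DMP minus ICC-MY was then -1.25. Both averages carry the brightest probe set's difference, so they add no support from the other probe sets. Which transcripts each probe set detects was not examined here.

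**Figure D1:**
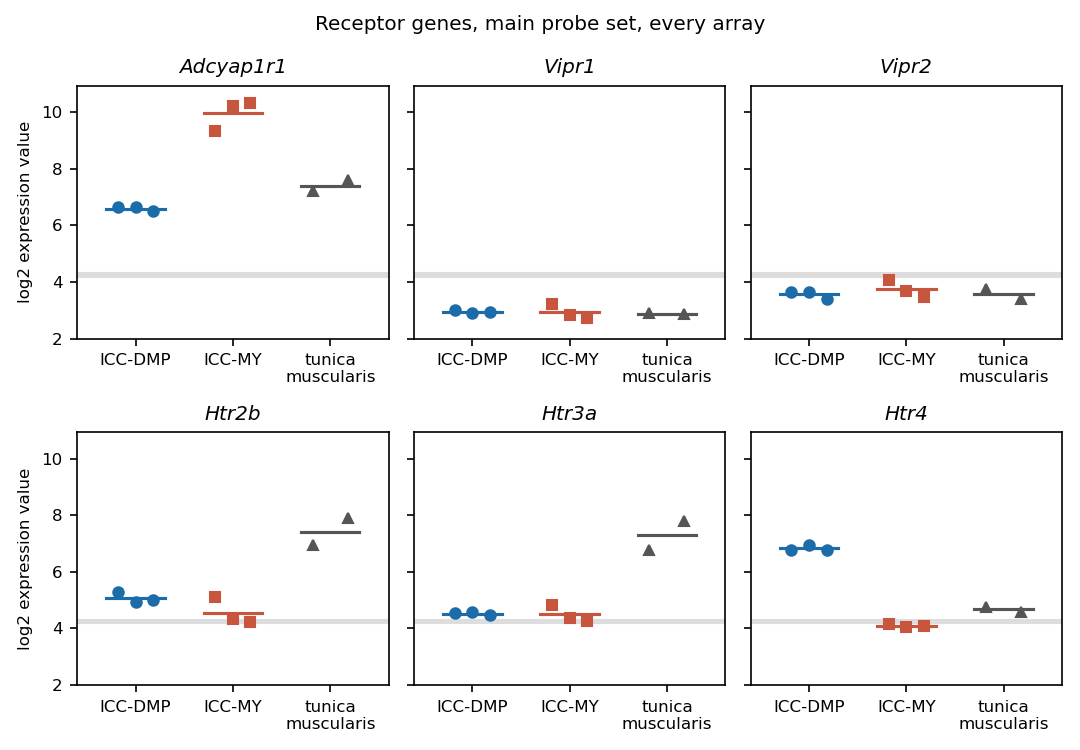
Log2 expression value (vertical axis) of the main probe set of each receptor gene on every array, grouped as ICC-DMP (circles), ICC-MY (squares) and tunica muscularis (triangles); horizontal bars are group means and the grey band spans the array medians, 4.18 to 4.30. Adcyap1r1 stands highest in ICC-MY, Htr4 in ICC-DMP, Htr2b and Htr3a in tissue, and Vipr1 and Vipr2 lie below the band on every array.

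Htr4, on chromosome 18, stood highest in ICC-DMP. It read 6.79, 6.96 and 6.79 in ICC-DMP, against 4.17, 4.04 and 4.11 in ICC-MY and 4.76 and 4.59 in tissue. The ICC-DMP arrays stood apart from all 5 others. ICC-DMP exceeded tissue by 2.17 (SE 0.14, adjusted p = 3.84e-05), or 4.50-fold, and ICC-MY by 2.74 (SE 0.13, adjusted p = 2.07e-05), or 6.68-fold.

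ICC-MY read below tissue for Htr4 in every array, by -0.57 (SE 0.14, adjusted p = 0.0325). That smaller difference depended on the fit. With the replicate block it was -0.55 (adjusted p = 0.0509), and the call was lost in 15 of 19 alternatives, whose adjusted p ran from 0.00865 to 0.241. It was lost without any single array except ICC-MY replicate 1 (adjusted p 0.0379 without that array, up to 0.142 without the others), at differences of -0.66 to -0.48. The order of Htr4 levels was ICC-DMP, tissue, ICC-MY, with the last pair separated by the main test but not in those 15 alternatives. The ICC-MY values of Htr4 lay just below the medians of their arrays.

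Htr4 had a second probe set, which read 2.79 to 2.89 in ICC-DMP, 2.87 to 3.09 in ICC-MY and 2.93 and 2.81 in tissue. Its groups overlapped, and it passed in no comparison (adjusted p from 0.706 to 0.970). With both probe sets averaged, ICC-DMP exceeded tissue by 1.08 and ICC-MY by 1.31, and both passed. These averages carry the brightest probe set's difference and add no support from the second. As with Adcyap1r1, the difference thus rests on 1 probe set that names the gene.

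**Figure D2:**
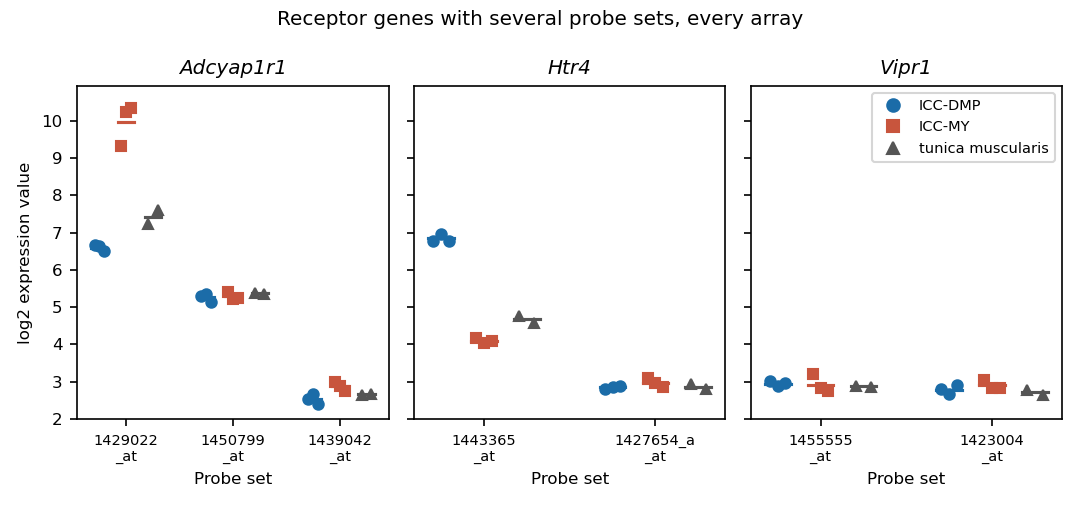
Log2 expression value of every probe set of the 3 receptor genes that have more than 1, on every array (circles ICC-DMP, squares ICC-MY, triangles tunica muscularis, bars group means). For Adcyap1r1 and Htr4 the groups separate on the brightest probe set, while on the others the group means differ by at most 0.35.

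The remaining serotonin receptor genes stood highest in tissue. Htr2b read 5.29, 4.93 and 5.01 in ICC-DMP and 5.12, 4.33 and 4.23 in ICC-MY, against 6.94 and 7.90 in tissue. All ICC arrays lay below both tissue arrays. Htr2b was lower than tissue by -2.34 in ICC-DMP (SE 0.35, adjusted p = 0.00306) and by -2.86 in ICC-MY (SE 0.35, adjusted p = 0.000869).

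Htr3a read 4.55, 4.57 and 4.46 in ICC-DMP and 4.84, 4.37 and 4.28 in ICC-MY, against 6.79 and 7.82 in tissue. It too separated all ICC arrays from tissue, and its lower tissue value came from replicate 1, the narrow-spread array. Htr3a was lower by -2.78 in ICC-DMP (SE 0.30, adjusted p = 0.000574) and by -2.81 in ICC-MY (SE 0.30, adjusted p = 0.000448), or 6.85-fold and 6.99-fold. Each gene has 1 probe set, and these 4 calls held under all 19 alternatives.

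Between the ICC classes, Htr2b and Htr3a did not pass. Htr2b was 0.52 higher in ICC-DMP (SE 0.31, 95% interval -0.19 to 1.22, adjusted p = 0.473), with overlapping arrays. Without the 2 narrow-spread arrays it was 0.80 higher and passed (adjusted p = 0.0116), as it did with array weights (0.0494), over a range of 0.0116 to 0.815. Htr3a differed by 0.03 (SE 0.27, 95% interval -0.59 to 0.64, adjusted p = 0.977). The order for both genes was tissue first, with the ICC classes not separated by the main test.

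Markers of several other cell types fell in the isolated cells alongside Htr2b and Htr3a. Of 14 enteric neuron markers measured, 13 were lower in each ICC class than in tissue, where 7.32% of all genes were in ICC-DMP and 9.78% in ICC-MY. Their summed level (log2 of the summed linear values) was 8.01 to 8.22 in ICC-DMP and 8.17 to 8.25 in ICC-MY, against 12.8 to 13.4 in tissue. Stmn2, a neuronal cytoskeleton gene, averaged 4.74 ± 0.14 in ICC-DMP and 4.75 ± 0.08 in ICC-MY (SD, n = 3 each), against 10.79 ± 0.43 in tissue (n = 2).

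Macrophage markers were lower for 9 of 11 in each class, with summed levels of 8.06 to 8.39 in ICC-DMP and 8.50 to 8.58 in ICC-MY, against 10.7 to 11.9 in tissue. All 6 mesothelial markers were lower in both classes (6.83 to 7.08 and 6.65 to 6.80, against 11.8 to 12.3). Epithelial markers were lower for 4 of 8 in each class (7.61 to 8.01 and 7.67 to 9.00, against 10.1 to 12.6), and glial markers for 2 of 6 (7.68 to 7.87 and 7.34 to 7.62, against 9.42 to 10.1). Beside all these counts, 7.32% of all genes were lower in ICC-DMP and 9.78% in ICC-MY. The log2 values have no true zero, so no marker can be called absent, and the part of these cell types in the Htr2b and Htr3a differences was not tested.

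**Figure D3:**
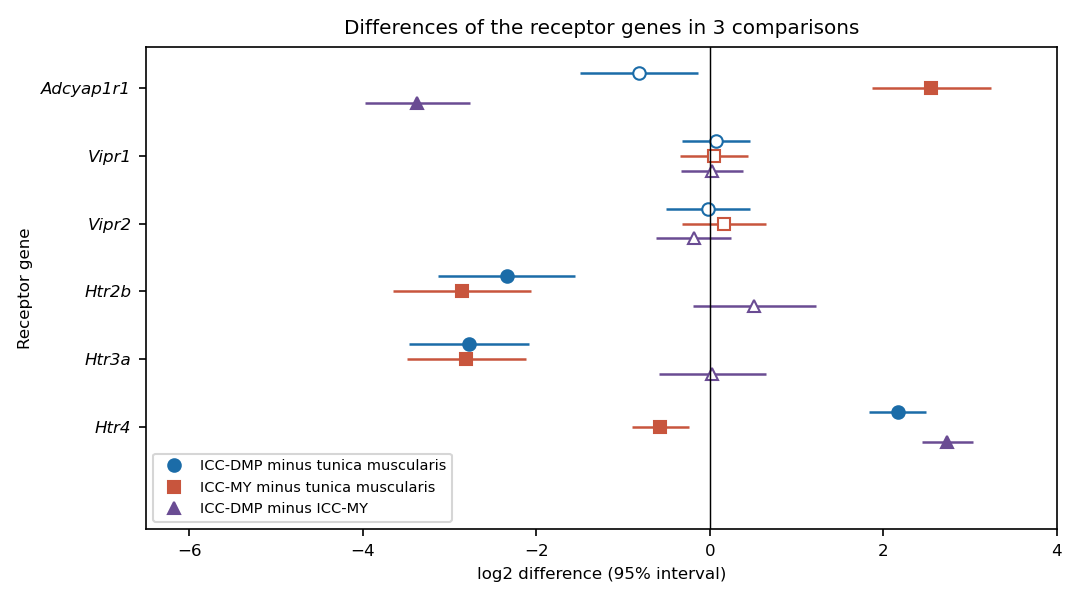
Log2 difference of each receptor gene (horizontal axis, first-named group minus the second) in 3 comparisons, with unadjusted 95% intervals from the limma fit; filled symbols passed at an adjusted p under 0.05 and open ones did not. Vipr1 and Vipr2 straddle 0 in all 3 comparisons, Htr2b and Htr3a are negative against tissue in both ICC classes, and Adcyap1r1 and Htr4 point in opposite directions in the 2 classes.

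The VIP receptor genes showed no detectable difference. Vipr2 read 3.64, 3.63 and 3.41 in ICC-DMP and 4.07, 3.68 and 3.48 in ICC-MY, against 3.76 and 3.40 in tissue. Vipr1 read 3.01, 2.89 and 2.95 in ICC-DMP and 3.21, 2.83 and 2.74 in ICC-MY, against 2.89 and 2.86 in tissue. All of these values lay below the median of their array, the groups overlapped in every comparison, and the highest ICC-MY value of each gene came from replicate 1.

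The size of any change in the VIP receptor genes was bounded by the intervals rather than shown to be 0. The 95% interval of the difference from tissue ran from -0.51 to 0.46 in ICC-DMP and from -0.32 to 0.65 in ICC-MY for Vipr2. For Vipr1 it ran from -0.32 to 0.47 and from -0.35 to 0.44. Between the classes, ICC-DMP minus ICC-MY was -0.18 (-0.62 to 0.25) for Vipr2 and 0.03 (-0.33 to 0.38) for Vipr1. The second Vipr1 probe set read 2.65 to 3.05 over all arrays and passed in no comparison (adjusted p from 0.521 to 0.870). Array values this low can be near background, so an expressed transcript that the probe sets detect poorly would look the same.

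Counted over the set, 3 of 6 receptor genes differed between ICC-DMP and tissue (1 higher, 2 lower), where 11.0% of all genes did, 3.72% higher and 7.32% lower. Between ICC-MY and tissue 4 of 6 differed (1 higher, 3 lower), against 13.8% of all genes (4.05% higher, 9.78% lower), and 3 with the replicate block. Between ICC-DMP and ICC-MY 2 of 6 differed (1 higher, 1 lower), against 8.67%. The arrays of the groups did not overlap for 4, 4 and 2 of the 6 genes, where that held for 38.5%, 34.2% and 25.6% of all genes. The median log2 difference of the set was -0.42, -0.26 and 0.03 in these comparisons, beside -0.04, -0.02 and -0.02 over all genes. The 2 comparisons with tissue share their tissue arrays, so they are not independent, and 6 genes picked by name are a description of this set only.

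The ligand and serotonin-handling genes were measured for all 10 listed. Vip, the peptide's own gene, read 2.99, 2.99 and 3.15 in ICC-DMP and 2.84, 2.77 and 3.05 in ICC-MY, against 9.09 and 10.29 in tissue. It was lower than tissue by -6.64 in ICC-DMP (SE 0.31, adjusted p = 7.03e-06) and -6.80 in ICC-MY (SE 0.31, adjusted p = 6.05e-06). The ICC values of Vip may lie at background, so the sizes of these differences may be lower bounds. Adcyap1, which encodes PACAP, averaged 3.51 ± 0.11 in ICC-DMP and 3.74 ± 0.22 in ICC-MY (n = 3 each), against 4.30 ± 0.22 in tissue (n = 2). It passed as lower in ICC-DMP (-0.79, SE 0.18, adjusted p = 0.0284) and not in ICC-MY (-0.56, SE 0.18, adjusted p = 0.0897). The ICC-DMP call for Adcyap1 was lost without tunica muscularis replicate 1 or any of the ICC-DMP arrays (adjusted p up to 0.157 among the alternatives that leave out 1 array, from 0.0204).

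Among genes that make and store serotonin, Slc18a2, the vesicular monoamine transporter, was lower in both classes, by -2.62 in ICC-DMP (SE 0.30, adjusted p = 0.000846) and -2.30 in ICC-MY (SE 0.30, adjusted p = 0.00131). Ddc, the decarboxylase that completes serotonin and dopamine synthesis, read 3.93, 3.98 and 4.40 in ICC-DMP and 5.02, 5.75 and 5.72 in ICC-MY, against 5.75 and 6.86 in tissue. Ddc was lower in ICC-DMP than in tissue (-2.21, SE 0.36, adjusted p = 0.00496) and than in ICC-MY (-1.40, SE 0.32, adjusted p = 0.0301). The call between the classes was lost without any ICC-DMP array or without ICC-MY replicate 2 or 3 (adjusted p from 0.00987 to 0.129 over single arrays left out). The second Ddc probe set did not pass in either comparison (-0.29 and -0.65).

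Of the monoamine oxidase genes, Maob separated the ICC classes and Maoa did not pass. Maob, a monoamine oxidase of the outer mitochondrial membrane, read 8.87, 9.01 and 8.53 in ICC-DMP, against 4.19, 4.73 and 4.98 in ICC-MY and 7.47 and 9.01 in tissue. ICC-MY thus lay below every other array. It was lower than tissue by -3.60 (SE 0.43, adjusted p = 0.000794), and ICC-DMP exceeded ICC-MY by 4.17 (SE 0.38, adjusted p = 0.000291). ICC-DMP did not differ detectably from tissue in Maob (0.56, SE 0.43, adjusted p = 0.567).

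Maoa, the isoform that prefers serotonin, averaged 8.20 ± 0.15 in ICC-DMP, 7.66 ± 0.22 in ICC-MY and 8.44 ± 0.82 in tissue and passed in no comparison (adjusted p from 0.166 to 0.793). The synthesis genes Tph1 and Tph2, the serotonin transporter gene Slc6a4 and the second vesicular transporter gene Slc18a1 passed in none either, with group means of 2.25 to 3.81 that lay below all array medians. Against tissue, ICC-DMP was lower for 4 of 10 genes and ICC-MY for 3 of 10. The list's median difference was -0.17 and -0.67, and between the classes, where 1 gene was higher and 1 lower, -0.18. Of all genes, 7.32% were lower in ICC-DMP and 9.78% in ICC-MY.

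**Figure D4:**
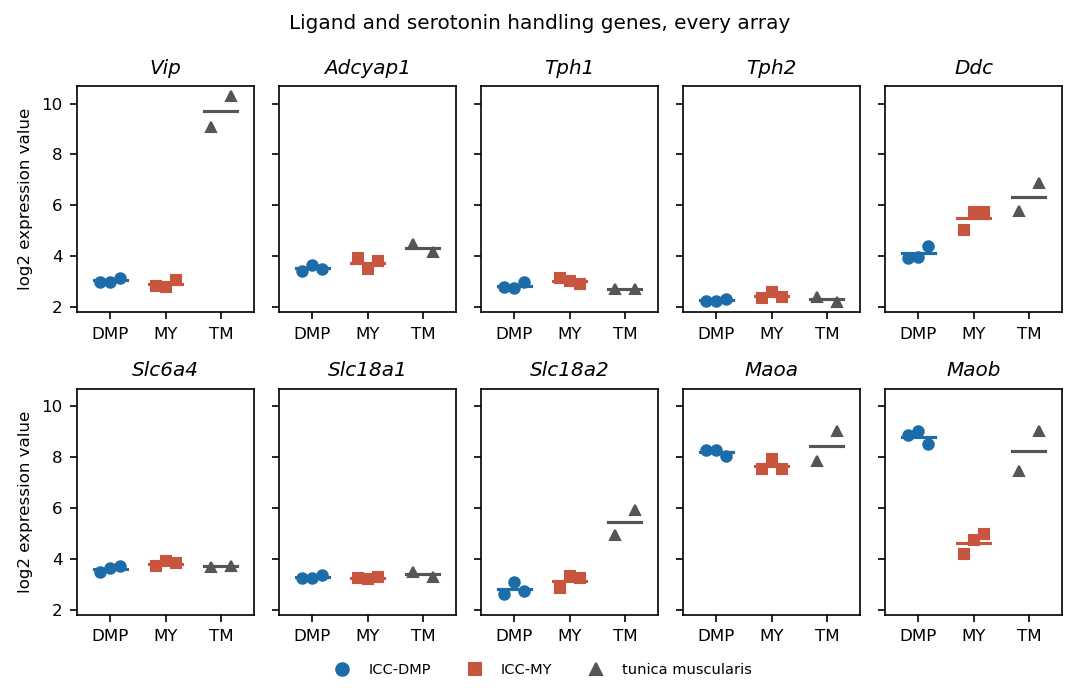
Log2 expression value of the 10 ligand and serotonin-handling genes on every array (DMP, ICC-DMP; MY, ICC-MY; TM, tunica muscularis; bars are group means). Vip and Slc18a2 stand highest in tissue, and Maob reads 4.19 to 4.98 in ICC-MY, below its lowest value elsewhere of 7.47.

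No other serotonin receptor gene passed the test. Of 10 measured, 0 passed limma's test in any comparison and 0 had an unadjusted p under 0.05, and the list's median difference was -0.0040 for ICC-DMP and 0.05 for ICC-MY against tissue and -0.07 between the classes. The arrays of the groups did not overlap for 3, 1 and 1 of the 10 genes in these comparisons, against 38.5%, 34.2% and 25.6% of all genes. Htr1b, a receptor that lowers cyclic AMP, averaged 5.64 ± 0.21 in ICC-DMP, 5.72 ± 0.07 in ICC-MY and 5.75 ± 0.05 in tissue. Htr7, which raises it, averaged 4.29 ± 0.10, 4.34 ± 0.11 and 4.28 ± 0.12 in the same order.

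Of 13 other class B receptor and RAMP genes measured, 4 passed in each comparison, where 11.0%, 13.8% and 8.67% of all genes passed in ICC-DMP against tissue, ICC-MY against tissue and ICC-DMP against ICC-MY. Sctr, the secretin receptor, is a close relative of the VIP and PACAP receptors. It read 9.37, 9.30 and 9.48 in ICC-DMP, against 5.01, 5.55 and 5.51 in ICC-MY and 5.06 and 5.62 in tissue. ICC-DMP thus stood far above both, by 4.05 over tissue (SE 0.23, adjusted p = 1.71e-05) and by 4.02 over ICC-MY (SE 0.21, adjusted p = 2.77e-05). ICC-MY and tissue overlapped (0.02, SE 0.23, adjusted p = 0.974).

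The RAMPs, single-pass proteins that assort with class B receptors and set their ligand preference, split between the classes. Ramp3 read 4.82, 4.74 and 4.76 in ICC-DMP and 8.34, 9.21 and 8.96 in ICC-MY, against 4.92 and 5.35 in tissue. ICC-MY exceeded tissue by 3.70 (SE 0.26, adjusted p = 4.47e-05), and ICC-DMP minus ICC-MY was -4.07 (SE 0.23, adjusted p = 3.49e-05). Ramp3 therefore had the order seen in Adcyap1r1: high in ICC-MY, with ICC-DMP below tissue in every array but not passing in the main test.

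Ramp1 ran the other way, at 9.88, 10.14 and 10.25 in ICC-DMP, against 5.50, 6.05 and 6.83 in ICC-MY and 8.32 and 9.01 in tissue. ICC-DMP exceeded ICC-MY by 3.96 (SE 0.33, adjusted p = 0.000185), and ICC-MY was below tissue by -2.53 (SE 0.37, adjusted p = 0.00243). ICC-DMP minus tissue was 1.43 (SE 0.37, adjusted p = 0.0457), a call lost without any ICC-DMP array, ICC-MY replicate 2 or either tissue array (0.0154 to 0.245 over single arrays left out). Of the 2 dimmer Ramp1 probe sets, 1 also passed between the classes (0.75) and neither passed against tissue. With its probe sets averaged, Ramp1 in ICC-DMP minus tissue was 0.53 (adjusted p = 0.109).

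Ramp2 averaged 6.30 ± 0.21 in ICC-DMP, 5.32 ± 0.02 in ICC-MY and 5.52 ± 0.16 in tissue. ICC-DMP exceeded ICC-MY by 0.97 (SE 0.15, adjusted p = 0.0042) and tissue by 0.78 (SE 0.17, adjusted p = 0.0192). The second did not hold without ICC-DMP replicate 1 or 3 or tunica muscularis replicate 1 (0.0207 to 0.105 over single arrays left out).

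Calcrl, the receptor for calcitonin gene-related peptide and adrenomedullin that the RAMPs partner, was lower than tissue by -2.40 in ICC-DMP (SE 0.32, adjusted p = 0.00187) and -1.98 in ICC-MY (SE 0.32, adjusted p = 0.00415). Its 2 other probe sets did not pass (-0.25 to -0.08). Pth1r, the parathyroid hormone receptor, was higher in ICC-MY than in tissue by 1.36 (SE 0.37, adjusted p = 0.0456), and lost its call without any single array except ICC-MY replicate 1 (0.00268 to 0.167). The list's median difference was 0.04 and -0.02 against tissue and 0.03 between the classes. In total 3 genes were higher and 1 lower in ICC-DMP than in tissue, 2 and 2 in ICC-MY, and 3 and 1 in ICC-DMP against ICC-MY.

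Downstream of Gs, adenylyl cyclase genes differed by isoform. Adcy3 read 9.71, 9.56 and 9.82 in ICC-DMP, against 6.90, 7.09 and 7.38 in ICC-MY and 7.57 and 7.54 in tissue. ICC-DMP exceeded tissue by 2.14 (SE 0.18, adjusted p = 0.000141) and ICC-MY by 2.58 (SE 0.16, adjusted p = 5.16e-05), and all 3 other Adcy3 probe sets also passed between the classes. Adcy2 was likewise higher in ICC-DMP than in tissue (1.38, SE 0.17, adjusted p = 0.00132) and than in ICC-MY (1.58, SE 0.16, adjusted p = 0.000398).

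Adcy1, a cyclase activated by calcium and calmodulin, had the opposite order, at 7.10, 7.14 and 7.27 in ICC-DMP and 8.75, 9.25 and 9.73 in ICC-MY, against 7.51 and 8.07 in tissue. ICC-MY exceeded tissue by 1.45 (SE 0.29, adjusted p = 0.0111, and 0.0714 without tunica muscularis replicate 1, over 0.00244 to 0.0714 for single arrays left out), and ICC-DMP minus ICC-MY was -2.07 (SE 0.26, adjusted p = 0.0014). The second Adcy1 probe set passed in both comparisons in the same direction.

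Adcy9 was higher in ICC-DMP than in tissue by 2.19 (SE 0.32, adjusted p = 0.00302), with its 3 other probe sets passing too, and than in ICC-MY by 1.40 (SE 0.29, adjusted p = 0.0193). None of its 3 other probe sets passed between the classes (0.61 to 1.25), and the call there was lost without any ICC-DMP array or ICC-MY replicate 2 (0.00996 to 0.0807). Adcy7 was lower in ICC-MY, by -3.81 against tissue (SE 0.34, adjusted p = 0.000188), and ICC-DMP exceeded ICC-MY by 2.88 (SE 0.31, adjusted p = 0.000622).

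Of 4 genes for regulatory subunits of protein kinase A, the main target of cyclic AMP, Prkar2b and Prkar1b passed in at least 1 comparison, and Prkar1a and Prkar2a passed in none (adjusted p from 0.0771 to 0.929). Prkar2b was higher than tissue by 2.10 in ICC-DMP (SE 0.46, adjusted p = 0.0214) and 2.18 in ICC-MY (SE 0.46, adjusted p = 0.0145). Both calls were lost without tunica muscularis replicate 1, where the differences were 1.42 and 1.50 (adjusted p = 0.117 and 0.0782), and the first also without any ICC-DMP array (lowest over single arrays left out 0.0058 and 0.00281). Prkar1b was lower in ICC-MY than in tissue by -2.07 (SE 0.43, adjusted p = 0.0141, and 0.0962 without tunica muscularis replicate 2, over 0.00588 to 0.0962), and ICC-DMP exceeded ICC-MY by 2.77 (SE 0.39, adjusted p = 0.00263).

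Of the 19 Gs and cyclic AMP genes measured, 4 were higher and 1 lower in ICC-DMP than in tissue, where 3.72% and 7.32% of all genes were. In ICC-MY 2 were higher and 3 lower than in tissue, where 4.05% and 9.78% of all genes were. ICC-DMP exceeded ICC-MY for 6 and was below it for 1, where 5.36% of all genes were higher and 3.30% lower. The list's median difference was 0.07, -0.23 and 0.19 in these comparisons.

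**Figure D5:**
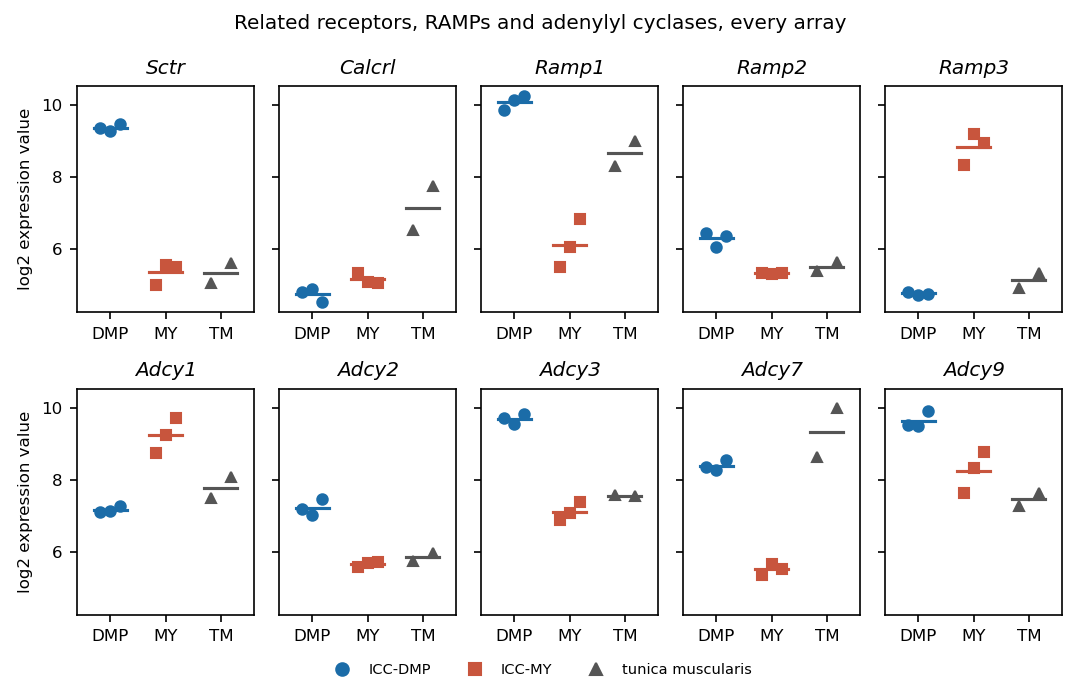
Log2 expression value of Sctr, Calcrl, the 3 RAMP genes and 5 adenylyl cyclase genes on every array (DMP, ICC-DMP; MY, ICC-MY; TM, tunica muscularis; bars are group means). Ramp3 and Adcy1 stand highest in ICC-MY, and Sctr, Ramp1, Ramp2, Adcy2, Adcy3 and Adcy9 in ICC-DMP, while ICC-DMP and tissue lie near one another for Ramp3.

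Genes of the Gq arm, through which Htr2b signals, were lower where they passed. Plcb1, a phospholipase C, was below tissue by -2.35 in ICC-DMP (SE 0.28, adjusted p = 0.00101) and -2.93 in ICC-MY (SE 0.28, adjusted p = 0.000256), on 1 of its 5 probe sets. Itpr3, a calcium release channel, was below tissue by -1.68 (SE 0.20, adjusted p = 0.00101) and -1.47 (SE 0.20, adjusted p = 0.00161), and Plcb4 by -2.69 in ICC-MY (SE 0.44, adjusted p = 0.00443). Of 8 genes measured, 2 were lower in ICC-DMP, 3 in ICC-MY and 0 passed limma's test between the classes, where 2 had an unadjusted p under 0.05. Over all genes, 7.32% and 9.78% were lower than tissue, and 8.67% passed between the classes. The list's median difference was -0.0047, -0.03 and -0.04 in these comparisons, beside -0.04, -0.02 and -0.02 over all genes.

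Among 10 regulators that end receptor signalling, 3 were lower and 1 higher in ICC-MY than in tissue, and 1 was lower in ICC-DMP, where 9.78%, 4.05% and 7.32% of all genes were. Rgs4, which speeds the shut-off of Gq and Gi proteins, was below tissue by -2.00 in ICC-DMP (SE 0.22, adjusted p = 0.000701) and -3.94 in ICC-MY (SE 0.22, adjusted p = 1.59e-05), and ICC-DMP exceeded ICC-MY by 1.94 (SE 0.20, adjusted p = 0.000506). The Rgs4 difference between the classes rests on 1 probe set, since the 2 others differed by 0.0097 and 0.19 and did not pass, and with all 3 averaged it was 0.71. Rgs2 was below tissue by -3.79 in ICC-MY (SE 0.47, adjusted p = 0.000964) and 2.89 higher in ICC-DMP than in ICC-MY (SE 0.42, adjusted p = 0.00317). Grk3, a kinase of activated receptors, was below tissue by -1.62 in ICC-MY (SE 0.28, adjusted p = 0.00532). ICC-DMP exceeded ICC-MY in Grk3 by 1.37 (SE 0.25, adjusted p = 0.0101), which did not pass without ICC-DMP replicate 1 or 2 (0.0031 to 0.054 over single arrays left out).

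Arrb1, an arrestin, was 2.78 higher in ICC-DMP than in ICC-MY (SE 0.45, adjusted p = 0.00543), and Rgs16 was 1.87 higher in ICC-MY than in tissue (SE 0.35, adjusted p = 0.00865). Of the 10 genes, 4 were higher in ICC-DMP than in ICC-MY, against 5.36% of all genes.

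Over all 6 lists of ligands, related receptors and signalling genes, 70 genes were measured. In ICC-DMP 7 were higher and 9 lower than in tissue, in ICC-MY 5 were higher and 14 lower, and 14 were higher and 3 lower in ICC-DMP than in ICC-MY. Of all genes, 3.72% were higher and 7.32% lower in the first comparison, 4.05% and 9.78% in the second, and 5.36% and 3.30% in the third. The median difference was -0.03, -0.04 and -0.01, near the medians of all genes.

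Between the ICC classes, where Adcyap1r1 and Htr4 differed, other markers moved as well. Smooth muscle markers were higher in ICC-DMP for 8 of 10, with a summed level of 14.2 to 14.5 in ICC-DMP and 11.8 to 13.0 in ICC-MY. Against tissue, at 14.3 to 15.4, 6 of 10 were lower in ICC-DMP and 9 of 10 in ICC-MY. Of 10 ICC markers, 1 was higher and 5 lower in ICC-DMP than in ICC-MY (14.6 to 14.9 and 14.2 to 15.6, against 12.4 to 13.8 in tissue). Between the classes, 5.36% of all genes were higher in ICC-DMP and 3.30% lower. Lower than tissue were 7.32% of all genes in ICC-DMP and 9.78% in ICC-MY.

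Between the classes, 1 of 14 neuron markers was called lower in ICC-DMP and 1 of 6 glial markers higher. Macrophage and mesothelial markers had 0 in limma's test, with 1 gene each at an unadjusted p under 0.05. Beside these counts and those that follow between the classes, 5.36% of all genes were higher in ICC-DMP and 3.30% lower. Endothelial markers had 1 higher and 2 lower of 8 (9.13 to 9.78 in ICC-DMP and 8.03 to 9.00 in ICC-MY, against 8.71 to 9.03 in tissue). The higher one was Plvap, averaging 9.14 in ICC-DMP, 6.18 in ICC-MY and 5.78 in tissue. Esam, the list's other brightest gene, went the other way. In ICC-DMP it was lower than in ICC-MY by -2.07 (SE 0.33, limma adjusted p = 0.00543). It was lower than in tissue by -2.57 (SE 0.37, limma adjusted p = 0.00272). Against tissue, 1 endothelial marker was higher and 3 lower in ICC-DMP (median -0.65), beside 3.72% and 7.32% of all genes. Fibroblast markers had 1 of 8 higher between the classes (13.2 to 13.8 and 12.2 to 13.1, against 13.5 to 14.7). Mast cell and lymphocyte markers passed limma's test in none of the comparisons, with 1 mast cell gene and 0 lymphocyte genes at an unadjusted p under 0.05 between the classes. The part of smooth muscle or endothelial RNA in the Adcyap1r1 and Htr4 differences was not tested.

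The genes whose pattern was most like each receptor's were ranked by Pearson's r over the 8 arrays, among genes with a range of at least 1 log2 unit. For Adcyap1r1 they were Ampd3 (r = 0.997), an AMP deaminase, the adhesion receptor gene Adgrd1 (0.997) and Tafa2 (0.996). Ampd3 averaged 3.38 in ICC-DMP and 8.14 in ICC-MY, against 4.52 in tissue. For Htr4 they were Piezo2 (r = 0.999), a mechanically gated channel, Lancl3 (0.997) and the glutamate receptor gene Gria1 (0.997). Piezo2 averaged 7.14 in ICC-DMP, against 3.84 in ICC-MY and 4.41 in tissue.

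For Htr2b the most alike were Eml5 (r = 0.991), Adgrg6 (0.987) and Sphkap (0.983), and for Htr3a Cfb (0.998), a complement factor, Dleu7 (0.995) and Sphkap (0.995). Htr2b and Htr3a had r = 0.977 with each other. Over 8 arrays in 3 groups, such values mostly restate the order of the group means, where r over the means was 0.996 or more for all 12 of these pairs. Vipr1 and Vipr2 varied by only 0.47 and 0.67 over all arrays. Their closest genes were Pnpla3, Olfr544 and Bhmt (0.97 to 0.93) and Mamld1, Lce1i and Supt20 (0.946 to 0.932), for which group means agreed less (r from 0.339 to 0.996).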

How the data were processed

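Total RNA was amplified over repeated rounds and hybridised as biotinylated RNA to 1 array per sample, per the labels' protocols. The deposited values give each probe set's expression on the log2 scale. The submitters' processing notes name RMA and limma, with neither version nor role here, and the sources used here do not give whether the arrays were normalized together. Of 45101 probe sets, 64 controls were left out. The platform annotation gave 34945 a single gene, 932 several and 9160 none, and 34741 of the first kind matched RefSeq by Entrez ID. For genes with several probe sets (9010 of 18193), the one with the highest mean over the 8 arrays was used.

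One limma fit (version 3.58.1, R 4.3.3) over 3 groups gave each comparison, and p-values were adjusted by Benjamini-Hochberg over 18193 genes, with calls at an adjusted p under 0.05. Probe sets were also tested one by one over all single-gene probe sets. The procedure was tested on simulated data whose arrays varied independently, which does not cover deviations shared between arrays. Promoter sequences are RefSeq's (GRCm38.p6), and the files name no genome build.

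The same-numbered arrays deviated together from their group means in every pair (r from 0.155 to 0.608 over genes). Pairs of unlike number ran from -0.608 to 0.169, so the ranges overlapped, through ICC-MY replicate 3 with tissue replicate 2. Between the ICC classes alone the ranges were apart. There same-numbered arrays had r from 0.289 to 0.500, and arrays of unlike number from -0.338 to -0.0157. With 2 tissue arrays, the r values for tissue replicates 1 and 2 mirror each other and are not separate. These values leave it unsettled whether the replicate numbers pair the samples, and a fit with the replicate block was an alternative. The others changed the normalization, the probe set, the filter on dim genes, the weights, the prior and the arrays used. No pair of arrays held the same values.

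The receptor genes and the gene lists were chosen with earlier results of these data known. Named were all receptor genes, all ligand and serotonin-handling genes, from each other pathway list up to 4 called genes per comparison by size of difference (or the 2 brightest where none was called), from marker lists the 2 brightest genes at most, and the 3 genes most like each receptor gene.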

Additional observations from a re-analysis of the deposited data

Results flagged for a closer look

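The difference from tissue ran in opposite directions, or differed in size, between the ICC classes for 2 receptor genes, by the direct test of ICC-DMP against ICC-MY. For Adcyap1r1 the difference from tissue in ICC-DMP minus that in ICC-MY was -3.37 on the log2 scale (limma adjusted p = 0.000134), with all 3 ICC-DMP arrays below all 3 ICC-MY arrays. For Htr4 it was 2.74 (limma adjusted p = 2.07e-05), with all 3 ICC-DMP arrays above all 3 ICC-MY arrays. Both rest on the brightest probe set of the gene. The tissue arrays are shared by both differences and cancel in this test.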

How the results depend on the processing

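The counts of called receptor genes stayed within 1.5 times the reported ones in all 19 alternatives (3 to 4, 3 to 4, and 2 to 3 of 6 in ICC-DMP against tissue, ICC-MY against tissue and ICC-DMP against ICC-MY), and the counts over 70 pathway genes ran from 11 to 23, 14 to 27 and 12 to 22. Without 1 array at a time, the receptor counts were 3 to 4, 3 to 4 and 2, and the pathway counts 11 to 18, 16 to 23 and 13 to 18. With the replicate block the receptor counts were 3, 3 and 2 and the pathway counts 20, 22 and 20. Among the receptor genes the block ended the Htr4 call in ICC-MY against tissue (adjusted p = 0.0509) and changed no other call. Leaving out dim genes kept 11601 genes and 4 receptor genes, without Vipr1 and Vipr2. Of 49 named pathway calls, 38 held without every single array. Other alternatives ended calls too. Without the narrow-spread arrays, the ICC-DMP calls against tissue for Adcyap1, Ramp1 and Ramp2 were lost (adjusted p = 0.0655, 0.0545 and 0.0645). Centring each array on its median ended those of Ramp1 in ICC-DMP and Pth1r in ICC-MY (0.0664 and 0.0686). Array weights ended that of Ramp2 (0.0553). With only the 2 groups in the fit, the ICC-MY calls against tissue for Pth1r, Prkar2b, Prkar1b and Adcy1 were lost (0.0561 to 0.116).

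Of 336 single-gene comparisons under alternatives, 296 kept direction and call, 15 lost the call (all Htr4 in ICC-MY against tissue), 6 gained it and 19 changed sign, none of them called. Vipr1 in ICC-MY minus tissue became -0.050 with array weights and -0.079 without the 2 narrow-spread arrays, and ran from -0.094 to 0.14 without 1 array at a time. Vipr1 in ICC-DMP minus ICC-MY became -0.045 with probe sets averaged and ran from -0.066 to 0.17 without 1 array. Vipr2 in ICC-DMP minus tissue became 0.082 with the replicate block, 0.010 with array weights and 0.16 without the narrow-spread arrays, and ran from -0.20 to 0.16 without 1 array. Without 1 array, Vipr2 in ICC-MY minus tissue ran from -0.015 to 0.34 and Htr3a in ICC-DMP minus ICC-MY from -0.080 to 0.20. An alternative chosen after seeing the data left out the 2 arrays with the highest actin difference: Vipr1 (ICC-DMP minus ICC-MY) became -0.068, Vipr2 (ICC-DMP minus tissue) 0.055 and Htr3a (ICC-DMP minus ICC-MY) -0.047, and 3, 3 and 2 receptor genes were called. That alternative also ended the calls between the classes for Ddc, Ramp2, Rgs2 and Grk3, and those against tissue for Adcyap1, Ramp1, Ramp2 and Prkar2b in ICC-DMP and Pth1r and Prkar2b in ICC-MY (adjusted p from 0.0676 to 0.174). The cause was not tested. No detection calls were used here, and values near 3 may lie at background.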
